A study of Mus musculus with 9 samples.

Results

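Scgb1a1, Scgb3a1, Scgb3a2, Sftpa1, Sftpb, Sftpc, Sftpd, Bpifa1 and Bpifb1 encode proteins that the lining of the lung and airways secretes, and here their transcripts were measured in sorted mouse thymic epithelial cells. The genes were taken by symbol. Every probe set annotated to 1 of these symbols and to no other was kept, which gave 12 of the 45101 probe sets on the array and 9 of the 18194 genes tested. Sftpa1, Sftpc and Bpifb1 each had 2 probe sets and the other 6 genes had 1. For a gene with 2, the one with the higher mean log2 intensity over the 9 arrays was used, and the other is given beside it. An intensity is the brightness of a probe set on a linear scale, and since probe sets differ in how brightly they respond, no level of one gene is set against that of another.

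Sample titles gave 3 groups of 3 arrays, namely ZsG plus, ZsG minus mTEC and ZsG minus cTEC. ZsG is the green fluorescent protein ZsGreen, and mTEC and cTEC usually stand for medullary and cortical thymic epithelial cells. All 9 titles name C57BL/6 mice. Per the labels' protocols, a BAC (a large cloned piece of genome) was modified by galK recombineering to carry ZsG at the ATG of the TSLP gene, so the reporter reads the control sequence on that BAC, and mice were used at ages from 8 to 20 weeks. TSLP is an epithelial cytokine. Whether ZsG plus cells were medullary or cortical, how cells were sorted, and whether animals were pooled is not stated in the labels. Nor do they say whether the replicates are separate animals, and a p-value here rests on the spread between arrays, which may be technical. All 9 samples carry the cell type entry keratinocytes, against the titles, and the groups follow the titles.

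As background, secretoglobins are small secreted dimeric proteins, and Scgb1a1 is the main product of the club cells of the airway. Pulmonary surfactant is a film of lipid and protein made by alveolar type 2 cells. Its small hydrophobic proteins, SP-B (Sftpb) and SP-C (Sftpc), help the lipid film to spread, while SP-A (Sftpa1) and SP-D (Sftpd) are collectins, collagen-tailed lectins that bind sugars on microbes. Bpifa1 (also SPLUNC1) and Bpifb1 (also LPLUNC1) belong to the BPI-fold family and are secreted by airway epithelium and glands. Medullary thymic epithelial cells transcribe many genes that otherwise belong to peripheral tissues, some of them through the regulator Aire, and this display of self proteins is used to delete or divert self-reactive thymocytes.

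Most listed markers, but not all, followed the ZsG minus titles by sign, and the ZsG plus title names no compartment. In ZsG minus mTEC versus ZsG minus cTEC, 7 of 8 mTEC regulators and markers had a log2 difference above 0. Of 12 cTEC markers 10 were below 0. These counts were 6 and 10 in ZsG plus versus ZsG minus cTEC. Krt8, listed as a cTEC marker, ran the other way. Its geometric means were 66080, 40619 and 18476 in ZsG plus, ZsG minus mTEC and ZsG minus cTEC. Aire, at 15751, 23622 and 13180.4 on ZsG plus arrays and 18139.5, 17983 and 23992 on ZsG minus mTEC arrays, was at 1236, 2419 and 2570.5 on ZsG minus cTEC arrays. Prss16, a serine protease of cortical epithelium, was at 1543, 2069 and 505 on ZsG plus arrays, 2556, 4051 and 2513 on ZsG minus mTEC arrays and 49672, 41699 and 55909 on ZsG minus cTEC arrays. The Tslp transcript overlapped between all groups, ranging from 23.4 to 953 on ZsG plus arrays, from 244 to 472 on ZsG minus mTEC arrays and from 88.8 to 576 on ZsG minus cTEC arrays. ZsG plus arrays varied most among themselves, with a median log2 SD per gene of 1.30, against 0.631 for ZsG minus mTEC and 0.612 for ZsG minus cTEC. Probe sets for the bacterial genes phe and dap, which mouse RNA should not reach, read between 3.77 and 341 over the 9 arrays, so intensities in that range are dim.

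Replicate 2 of ZsG minus cTEC stood apart for the surfactant genes, and the differences of the 9 genes from ZsG minus cTEC are therefore given with and without it. This was seen in the values and then counted. Of the 45101 probe sets, 6 were at least 8-fold brighter on that array than on any of the other 8, with values under 100 set to 100. Of these 6, 4 belonged to the surfactant genes (both of Sftpc, the 1 of Sftpb and 1 of the 2 of Sftpa1) and the other two to Cxcl15, a chemokine gene of lung epithelium, named here after its values were seen. The other arrays had from 4 to 190 such probe sets, and none of them was a secretoglobin, surfactant protein or BPIF probe set.

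Scgb1a1, Sftpd and Bpifa1 read above the bacterial range on every array, and the other 6 genes were within it on at least 1 array. By limma, 0 of the 9 genes differed between groups past the threshold of an adjusted p under 0.05 in any comparison (Benjamini-Hochberg over 18194 genes). Over all genes, 0.22% passed in ZsG plus versus ZsG minus mTEC, 1.74% in ZsG plus versus ZsG minus cTEC, and 0.627% in ZsG minus mTEC versus ZsG minus cTEC. In simulated data this fit missed most changes of 4 on the log2 scale, so 0 calls do not show that the groups were alike. Bpifb1 overlapped between ZsG plus and ZsG minus mTEC, was lower on each ZsG minus cTEC array than on any of these, and had unadjusted p-values of 0.00391 and 0.00861 for ZsG plus and ZsG minus mTEC against ZsG minus cTEC (limma). Scgb3a2 was higher on each ZsG plus array than on any ZsG minus cTEC array. Sftpc, Sftpb, Sftpa1 and Scgb1a1 were brighter on ZsG minus cTEC replicate 2 than on the next array of that group by at least 144-fold for Sftpc, at least 9.24-fold for Sftpb, 39.3-fold for Sftpa1 and 22.8-fold for Scgb1a1. A fold given as at least a value sets the dimmer array to the highest bacterial reading, 341, since its own value lay below that.

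**Figure D1:**
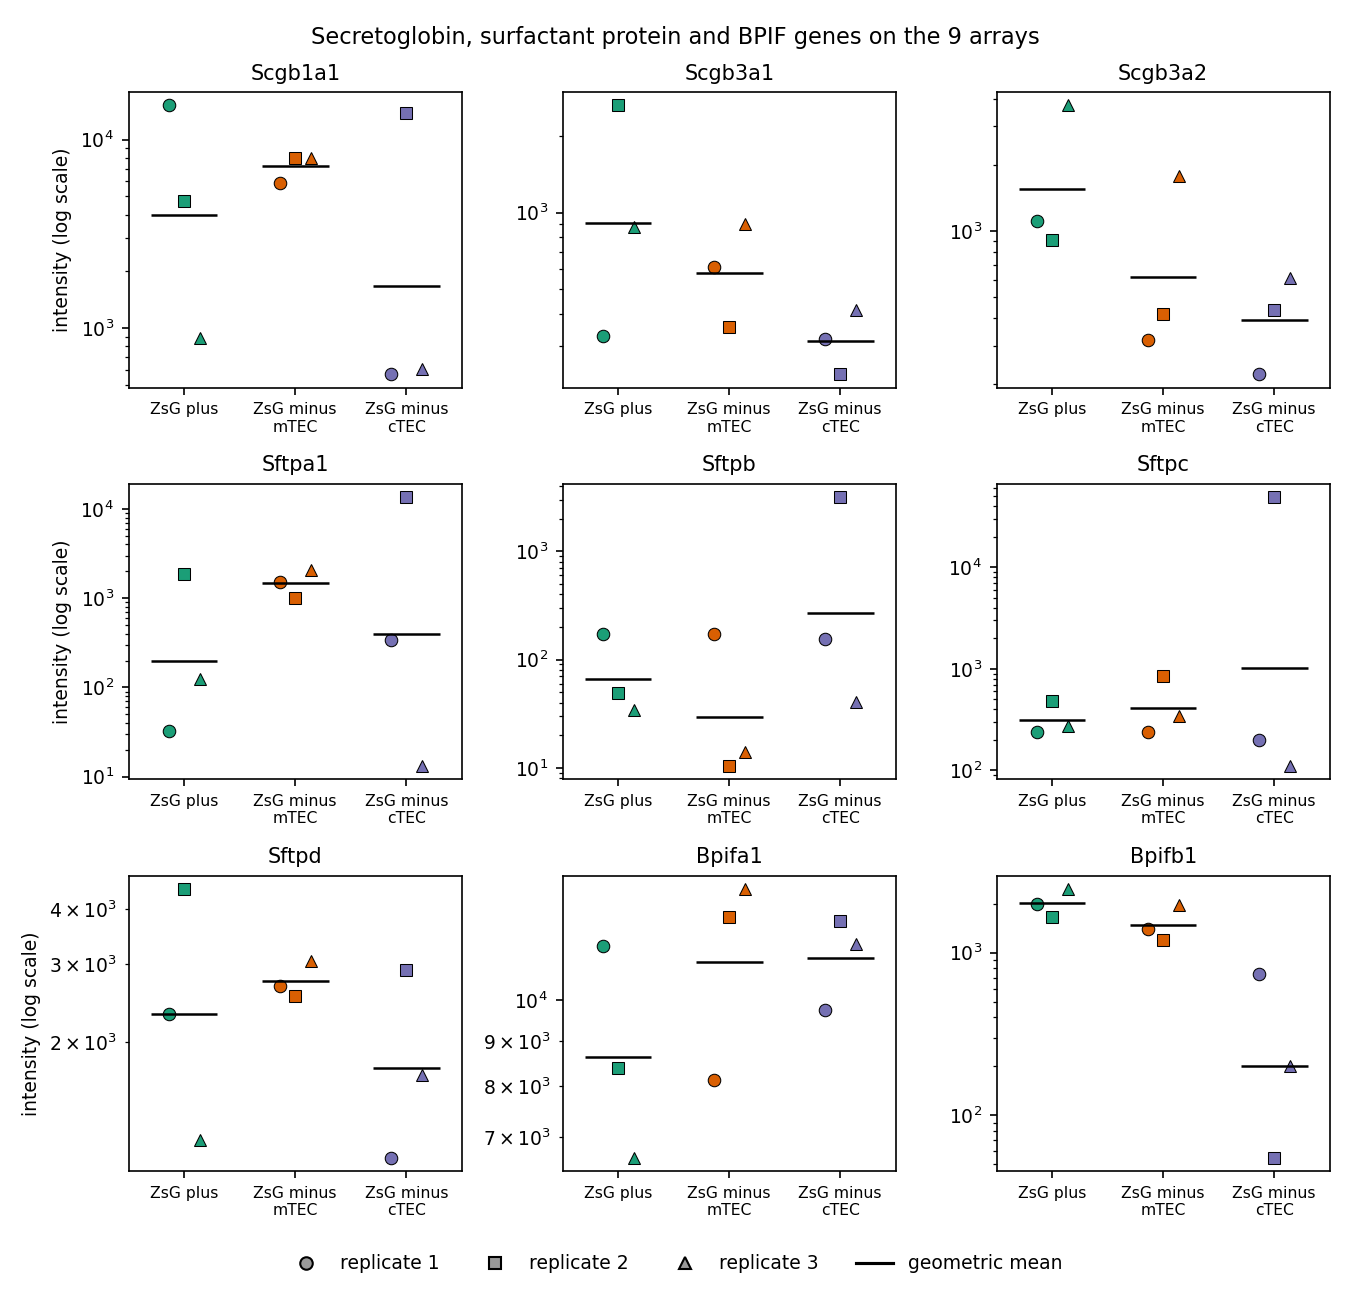
Intensity of the 9 genes on each array (1 panel per gene, log axis, arbitrary units of brightness). Symbols are replicates 1 to 3 of ZsG plus, ZsG minus mTEC and ZsG minus cTEC, and the black line is the geometric mean of a group. The square of ZsG minus cTEC stands far above the circle and triangle for Scgb1a1, Sftpa1, Sftpb and Sftpc, while for Bpifb1 all 3 ZsG minus cTEC points lie below the other 6.

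Scgb1a1, the club cell secretoglobin, read 15199.8, 4723 and 884 on ZsG plus replicates 1 to 3, 5925, 8014 and 7997 on ZsG minus mTEC and 569, 13782 and 604 on ZsG minus cTEC. The ZsG minus mTEC arrays lay close together (log2 SD 0.25), those of ZsG plus and ZsG minus cTEC were spread widely (2.06 and 2.63), and the ranges of all groups overlapped. The log2 difference was -0.86 ± 1.35 (adjusted p = 0.805) for ZsG plus versus ZsG minus mTEC, 1.25 ± 1.35 (adjusted p = 0.655) for ZsG plus versus ZsG minus cTEC and 2.11 ± 1.35 (adjusted p = 0.625) when ZsG minus mTEC was set against ZsG minus cTEC, where each error is the standard error from the fit and n = 3 arrays a group, fitted by limma. Here, as in all of these bulk RNA samples, fewer cells that carry a transcript and less of it per cell cannot be told apart. Without ZsG minus cTEC replicate 2, all ZsG plus and all ZsG minus mTEC arrays were above the remaining ZsG minus cTEC arrays, which read 569 and 604. The log2 differences were then 2.77 ± 1.10 (adjusted p = 0.332) for ZsG plus and 3.63 ± 1.10 (adjusted p = 0.299) for ZsG minus mTEC in limma. The array left out was the one that overlapped, and the share of all genes separated without it was not counted, so this separation is only a description.

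Scgb3a1, a secretoglobin of the larger airways, read 327, 2642 and 880.5 on ZsG plus arrays, 612, 355 and 901 on ZsG minus mTEC arrays and 319, 232 and 415 on ZsG minus cTEC arrays. ZsG plus replicate 2 was the brightest array and the groups overlapped. Its log2 differences were 0.65 ± 0.80, 1.54 ± 0.80 and 0.89 ± 0.80 for ZsG plus versus ZsG minus mTEC, ZsG plus versus ZsG minus cTEC and mTEC versus cTEC (both ZsG minus), with limma adjusted p-values of 0.742, 0.334 and 0.779. On each array but ZsG plus replicate 2 it was at 901 or less. Without ZsG minus cTEC replicate 2 the differences from ZsG minus cTEC were 1.33 ± 0.94 and 0.67 ± 0.94 for ZsG plus and ZsG minus mTEC.

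Scgb3a2, a secretoglobin of the small airways and of the developing lung, read 1117, 906 and 3742 on ZsG plus arrays, 318, 416 and 1791 on ZsG minus mTEC arrays and 222, 438 and 614 on ZsG minus cTEC arrays. Replicate 3 was the brightest in each group, and the lowest ZsG plus array was above the highest ZsG minus cTEC array, while ZsG minus mTEC overlapped both. ZsG plus exceeded ZsG minus cTEC by 2.0 ± 0.86 on the log2 scale, with an unadjusted p of 0.044 and an adjusted p of 0.254 by limma, and by 2.08 ± 1.03 (adjusted p = 0.425) without ZsG minus cTEC replicate 2. Against ZsG minus mTEC the difference of ZsG plus was 1.33 ± 0.86 (adjusted p = 0.522), and ZsG minus mTEC differed from ZsG minus cTEC by 0.66 ± 0.86 (adjusted p = 0.877), or 0.74 ± 1.03 without that array.

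Sftpc, the gene of SP-C and a defining transcript of alveolar type 2 cells, read 239, 479 and 271 on ZsG plus arrays, 237, 856 and 341 on ZsG minus mTEC arrays and 198, 48928 and 111 on ZsG minus cTEC arrays. Its other probe set read 60.5, 310.3 and 61.6 on ZsG plus arrays, 322, 1037 and 560.3 on ZsG minus mTEC arrays and 208, 85878 and 177 on ZsG minus cTEC arrays. Both were far brighter on ZsG minus cTEC replicate 2 than on the next ZsG minus cTEC array, by at least 144-fold at the probe set used and at least 252-fold at the other. The same array exceeded the brightest of the other 8 by 57.2-fold and 82.8-fold. At the second probe set all ZsG plus arrays were below all ZsG minus mTEC arrays, with a log2 difference of -2.45 ± 2.07 (adjusted p = 0.625) in the limma fit of every single-symbol probe set, while at the probe set used these groups overlapped. All ZsG plus values and that of ZsG minus mTEC replicate 1 at the second probe set lay inside the bacterial range, so this separation rests in part on dim values. At that second probe set ZsG plus versus ZsG minus cTEC was -3.80 ± 2.07 (adjusted p = 0.36) with all 9 arrays and -0.87 ± 0.95 (adjusted p = 0.728) without ZsG minus cTEC replicate 2 (limma). ZsG minus mTEC versus ZsG minus cTEC was -1.36 ± 2.07 (adjusted p = 0.934) with it and 1.58 ± 0.95 (adjusted p = 0.787) without it there.

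At the probe set used, the differences of Sftpc from ZsG minus cTEC had the opposite sign without that array. ZsG plus versus ZsG minus cTEC was -1.71 ± 1.94 (adjusted p = 0.673) with all 9 arrays and 1.08 ± 0.78 (adjusted p = 0.582) without it, by limma. ZsG minus mTEC versus ZsG minus cTEC was -1.32 ± 1.94 (adjusted p = 0.905) with it and 1.47 ± 0.78 (adjusted p = 0.665) without it. ZsG plus versus ZsG minus mTEC was -0.38 ± 1.94 (adjusted p = 0.949). Besides ZsG minus cTEC replicate 2, only replicate 2 of ZsG plus and of ZsG minus mTEC read above the bacterial range. The differences without ZsG minus cTEC replicate 2 therefore rest largely on dim values.

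Sftpb, whose product SP-B is cut from a larger precursor and is needed for the surfactant film, was dim on 8 arrays. It read 172, 49.3 and 34.3 on ZsG plus arrays, 173, 10.4 and 13.9 on ZsG minus mTEC arrays and 154, 3149.6 and 40.7 on ZsG minus cTEC arrays. All but ZsG minus cTEC replicate 2 were inside the range of the bacterial probe sets, so folds among them carry little. That array was at least 9.24-fold above the brightest of the other 8. The log2 differences were 1.18 ± 1.62, -2.03 ± 1.62 and -3.21 ± 1.62 for ZsG plus versus ZsG minus mTEC, ZsG plus versus ZsG minus cTEC and mTEC versus cTEC (both ZsG minus), with limma adjusted p-values of 0.772, 0.534 and 0.483. Those against ZsG minus cTEC were -0.26 ± 1.35 and -1.44 ± 1.35 without replicate 2 of that group.

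Sftpa1, the gene of the collectin SP-A, read 32.6, 1861 and 124 on ZsG plus arrays, 1516, 1009 and 2066 on ZsG minus mTEC arrays and 344, 13536 and 13.2 on ZsG minus cTEC arrays. It was at 1009 or more on each ZsG minus mTEC array, on ZsG plus replicate 2 and, at its highest, on ZsG minus cTEC replicate 2, and at 344 or less on the remaining arrays. Its other probe set read 241, 105 and 19.2 on ZsG plus arrays, 198, 125 and 60.8 on ZsG minus mTEC arrays and 87.4, 2300.4 and 67.2 on ZsG minus cTEC arrays, so both put ZsG minus cTEC replicate 2 highest, but the even level on ZsG minus mTEC arrays was not seen at the second. ZsG plus versus ZsG minus mTEC was -2.91 ± 2.26 (adjusted p = 0.591) at the probe set used and -0.55 ± 1.41 (adjusted p = 0.89) at the other, by limma. Against ZsG minus cTEC, ZsG plus differed by -1.01 ± 2.26 (adjusted p = 0.841) with all 9 arrays and by 1.54 ± 1.81 (adjusted p = 0.751) without replicate 2 of ZsG minus cTEC, a change of direction. ZsG minus mTEC versus ZsG minus cTEC was 1.89 ± 2.26 (adjusted p = 0.858) with that array and 4.44 ± 1.81 (adjusted p = 0.49) without it. At the other probe set ZsG plus versus ZsG minus cTEC was -1.60 ± 1.41 (adjusted p = 0.581) with that array and 0.035 ± 1.11 (adjusted p = 0.993) without it (limma). ZsG minus mTEC versus ZsG minus cTEC was -1.05 ± 1.41 (adjusted p = 0.914) and 0.58 ± 1.11 (adjusted p = 1) there.

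Sftpd, the gene of the collectin SP-D, read 2312, 4439 and 1202 on ZsG plus arrays, 2673, 2535 and 3049 on ZsG minus mTEC arrays and 1093, 2907 and 1686 on ZsG minus cTEC arrays. It was at 1093 or more on each array, its ZsG minus mTEC arrays lay within a log2 SD of 0.14, and all groups overlapped. Its span from the dimmest to the brightest array was 4.06-fold. ZsG minus cTEC replicate 2 was the brightest of its group for Sftpd too, by 1.72-fold over the next. The log2 differences were -0.25 ± 0.65, 0.40 ± 0.65 and 0.65 ± 0.65 for ZsG plus versus ZsG minus mTEC, ZsG plus versus ZsG minus cTEC and mTEC versus cTEC (both ZsG minus) (limma adjusted p = 0.894, 0.775 and 0.809). With that array left out those from ZsG minus cTEC were 0.77 ± 0.73 and 1.02 ± 0.73. Sftpa1, the collectin gene Mbl1 and Sftpd follow each other on mouse chromosome 14 in RefSeq, and Mbl1 read from 2.70 on ZsG minus cTEC replicate 2 to 387 on ZsG plus replicate 3, so it was not bright on the array where Sftpa1 was.

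The bases just before the transcription starts of Sftpa1 and Sftpb are shown because these were 2 of the genes that stood out together on 1 array. RefSeq promoters (assembly GRCm38.p6) were at hand for 5 of the 9 genes, Sftpa1, Sftpb, Scgb3a1, Bpifa1 and Bpifb1, and were not used here for Scgb1a1, Scgb3a2, Sftpc and Sftpd. The sequences are the 250 bases before the start at chr14:41131538-41131787 for Sftpa1 and chr6:72304360-72304609 for Sftpb, both on the plus strand and read 5′ to 3′. Capitals mark matches to CTCAAG, which reads as CTTGAG when it lies on the other strand, the core letters of sites bound by NKX2-1, a factor of lung and thyroid epithelium, and to TATAAA, the TATA box, read on the sense strand alone.
Sftpa1: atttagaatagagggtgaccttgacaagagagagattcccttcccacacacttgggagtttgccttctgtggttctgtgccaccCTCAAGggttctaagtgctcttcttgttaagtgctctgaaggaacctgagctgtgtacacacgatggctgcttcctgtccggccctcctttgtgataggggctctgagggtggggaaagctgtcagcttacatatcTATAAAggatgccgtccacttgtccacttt
Sftpb: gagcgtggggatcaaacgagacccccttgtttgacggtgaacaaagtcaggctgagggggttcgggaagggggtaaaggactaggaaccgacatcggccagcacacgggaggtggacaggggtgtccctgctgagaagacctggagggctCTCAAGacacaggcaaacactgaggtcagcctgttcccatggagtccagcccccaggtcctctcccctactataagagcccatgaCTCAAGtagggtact
CTCAAG lay at -166 to -161 in the Sftpa1 sequence, counted back from the start, and at both -100 to -95 and -15 to -10 in that of Sftpb. TATAAA lay at -30 to -25 of Sftpa1. Over 32851 mouse promoters of the same length, 13.3% held CTCAAG on either strand and 7.59% held TATAAA on the sense strand, so both are common, and a match of letters is a description and not a binding site. The Nkx2-1 transcript, named here for the motif after its values were seen, was dim on all arrays, from 40.9 to 339 on ZsG plus, from 48.6 to 328 on ZsG minus mTEC and from 31.8 to 60.5 on ZsG minus cTEC, with 31.8 on ZsG minus cTEC replicate 2.

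Bpifa1, an abundant secreted protein of the nose and upper airway, was the most even of the 9 genes. It read 11536, 8377 and 6631 on ZsG plus arrays, 8126, 12423 and 13378 on ZsG minus mTEC arrays and 9765, 12318 and 11591 on ZsG minus cTEC arrays. The groups overlapped fully, and the brightest array was 2.02-fold above the dimmest. The geometric mean of ZsG plus was 8621, that of ZsG minus mTEC 11054 and that of ZsG minus cTEC 11172. ZsG minus mTEC versus ZsG minus cTEC was -0.015 ± 0.52 (adjusted p = 0.997) by limma, with a 95% interval of -1.18 to 1.15 on the log2 scale. The interval of ZsG plus versus ZsG minus mTEC was -1.53 to 0.81 around -0.36, and that of ZsG plus versus ZsG minus cTEC was -1.54 to 0.79 around -0.37. Without ZsG minus cTEC replicate 2 the differences from ZsG minus cTEC were -0.30 ± 0.63 for ZsG plus and 0.055 ± 0.63 for ZsG minus mTEC.

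Bpifb1, a larger relative secreted by airway goblet cells and glands, read 1986, 1652 and 2461 on ZsG plus arrays, 1389.7, 1201 and 1970.3 on ZsG minus mTEC arrays and 739, 54.7 and 201 on ZsG minus cTEC arrays. The lowest ZsG plus array and the lowest ZsG minus mTEC array were both above the highest ZsG minus cTEC array, and ZsG minus cTEC replicate 2, so bright for Sftpc, was the dimmest of all. ZsG plus exceeded ZsG minus cTEC by 3.32 ± 0.87 on the log2 scale (geometric means 2006 and 201), which did not pass after adjustment (limma, adjusted p = 0.0947, unadjusted p = 0.00391). ZsG minus cTEC replicates 2 and 3 lay inside the bacterial range, so the size of this difference rests in part on dim values. With an offset of 50 added before log2 it did pass, at 2.90 with an adjusted p of 0.0444 by limma, and over all alternatives that p ranged from 0.0444 to 0.339. ZsG minus mTEC exceeded ZsG minus cTEC by 2.89 ± 0.87 (limma, adjusted p = 0.188, unadjusted p = 0.00861), with a geometric mean of 1487 in ZsG minus mTEC, and ZsG plus versus ZsG minus mTEC was 0.43 ± 0.87 (adjusted p = 0.856). Without ZsG minus cTEC replicate 2 the differences from ZsG minus cTEC were 2.38 ± 0.75 (adjusted p = 0.245) for ZsG plus and 1.95 ± 0.75 (adjusted p = 0.454) for ZsG minus mTEC.

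The other Bpifb1 probe set read 1370.5, 91.7 and 784 on ZsG plus arrays, 718, 1594 and 1398 on ZsG minus mTEC arrays and 509, 1.96 and 64.3 on ZsG minus cTEC arrays. It too put all ZsG minus mTEC arrays above all ZsG minus cTEC arrays, by 4.87 ± 1.80 (adjusted p = 0.351) in the limma fit of every single-symbol probe set. It differed from the first in ZsG plus, where replicate 2 was at 91.7, below ZsG minus cTEC replicate 1. ZsG plus versus ZsG minus cTEC was 3.53 ± 1.80 (adjusted p = 0.331) there, and ZsG plus versus ZsG minus mTEC was -1.34 ± 1.80 (adjusted p = 0.767), of the opposite sign to the probe set used. ZsG minus cTEC replicate 2 read 1.96 here. When it was left out, the differences from ZsG minus cTEC were 1.35 ± 1.32 (adjusted p = 0.692) for ZsG plus and 2.69 ± 1.32 (adjusted p = 0.682) for ZsG minus mTEC in limma.

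Bpifa1 and Bpifb1 lie in 1 cluster of BPI-fold genes on mouse chromosome 2, with Bpifa5 between them in RefSeq, and their upstream bases are shown because 1 gene was even over the groups and the other was not. RefSeq gives 1 start for Bpifa1 and 2 for Bpifb1 in assembly GRCm38.p6, with the 250 bases before them at chr2:154142630-154142879, chr2:154190568-154190817 and chr2:154200130-154200379, all on the plus strand. Capitals mark CTCAAG and TATAAA as above, TNTTTAC, the letters that forkhead (FOX) factors bind, and AGATAA, those of GATA factors, both searched on either strand (AGATAA reads TTATCT on the other strand).
Bpifa1: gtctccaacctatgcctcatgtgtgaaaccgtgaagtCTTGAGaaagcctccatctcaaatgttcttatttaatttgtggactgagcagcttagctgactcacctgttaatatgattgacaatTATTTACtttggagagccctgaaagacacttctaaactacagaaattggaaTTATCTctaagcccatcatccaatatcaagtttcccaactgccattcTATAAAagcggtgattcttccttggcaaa
Bpifb1, first start: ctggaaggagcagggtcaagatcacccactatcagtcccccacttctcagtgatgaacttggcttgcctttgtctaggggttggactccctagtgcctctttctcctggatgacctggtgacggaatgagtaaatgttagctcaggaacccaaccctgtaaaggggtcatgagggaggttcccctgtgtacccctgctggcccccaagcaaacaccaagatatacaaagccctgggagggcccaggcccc
Bpifb1, second start: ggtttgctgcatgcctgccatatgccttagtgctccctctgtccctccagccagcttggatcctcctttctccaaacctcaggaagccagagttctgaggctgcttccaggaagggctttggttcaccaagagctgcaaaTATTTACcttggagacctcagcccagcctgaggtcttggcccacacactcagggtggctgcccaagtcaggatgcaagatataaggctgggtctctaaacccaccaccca
The Bpifa1 sequence held CTTGAG at -213 to -208, TATTTAC at -127 to -121, TTATCT at -76 to -71 and TATAAA at -29 to -24. For Bpifb1 the second start had TATTTAC at -110 to -104, and the first start had no match to any of the 4 motifs. The Scgb3a1 promoter held CTTGAG at -172 to -167 and no other match. No matches overlapped each other, and among the 32851 promoters 10.9% held TNTTTAC and 9.99% AGATAA on either strand. The arrays do not tell which start of Bpifb1 was used.

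**Figure D2:**
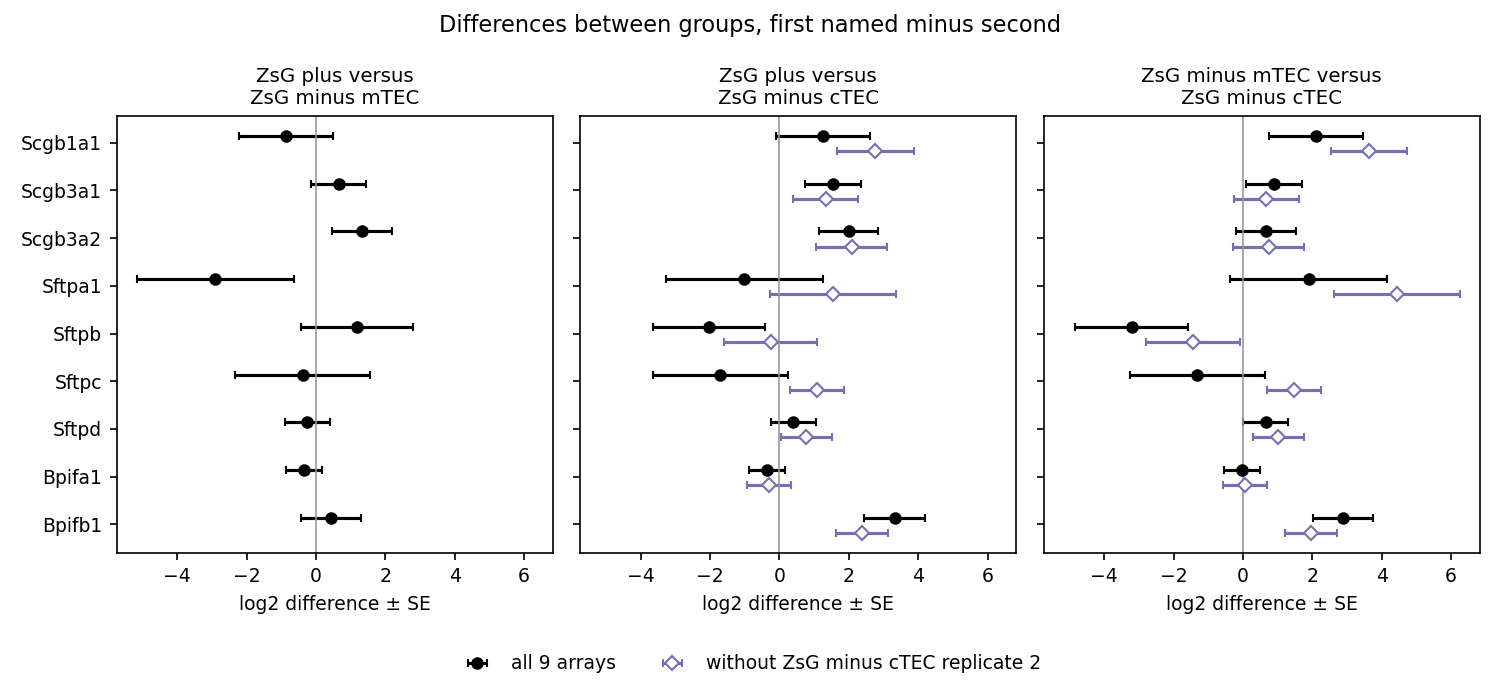
Log2 difference of the 9 genes in each comparison, the first named group minus the second, with bars of 1 standard error from the limma fit. Filled circles use all 9 arrays and open diamonds leave out ZsG minus cTEC replicate 2. When that array is left out, Sftpc crosses 0 in both comparisons with ZsG minus cTEC, Sftpa1 in that of ZsG plus and Bpifa1, close to 0, in that of ZsG minus mTEC, and Bpifb1 stays on the right of 0 in both comparisons with ZsG minus cTEC.

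In ZsG plus versus ZsG minus mTEC, 4 of the 9 genes had a log2 difference above 0 and 5 below, with a median of -0.25 against -0.33 over all 18194 genes. By limma 0 of the 9 reached an unadjusted p under 0.05, where 13.4% of all genes did, and 0 had groups that did not overlap, against 18.1% of all genes.

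In ZsG plus versus ZsG minus cTEC, 5 of the 9 were above 0, with a median of 0.40 against -0.14 over all genes. By limma, Scgb3a2 and Bpifb1 had an unadjusted p under 0.05, both higher in ZsG plus, where 18.7% of all genes had one in either direction and 7.44% in this one. They were also the 2 whose ZsG plus arrays all lay above the ZsG minus cTEC arrays, as did 9.9% of all genes, and 23.3% had separate groups in either direction. Without ZsG minus cTEC replicate 2 the median of the 9 was 1.33 against -0.16 over all genes. That array was left out because some of the 9 were bright on it, so a rise follows in part from the choice and is not a result about the set. In that fit 0 of 18194 genes passed the threshold (limma, 2437 at an unadjusted p under 0.05).

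In ZsG minus mTEC versus ZsG minus cTEC, 6 of the 9 were above 0, with a median of 0.66 against 0.094 over all genes. Bpifb1 was the 1 gene with an unadjusted p under 0.05 (limma) and with separate groups, higher in ZsG minus mTEC. Of all genes 12.3% had such a p, 8.4% higher, and 28.5% had separate groups, 16.6% higher. The median of the 9 was 1.02 without ZsG minus cTEC replicate 2, against 0.078 over all genes, and here too a rise follows in part from the choice of array. In that fit 0 genes of all passed (limma, 1697 at an unadjusted p under 0.05). These comparisons share groups, so their values for a gene are not independent of each other. Centring each array on its median moved the median over all genes to 0.30, 0.32 and -0.080 in the order of the comparisons above, and it left Bpifb1 and Scgb3a2 above 0 in each of them.

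The bright genes on ZsG minus cTEC replicate 2 were then counted by list. That array was singled out because some of the 9 genes were bright on it. The counts of the 9 genes beside those of all genes follow in part from this choice, so they are a description and not a test. Within that group, 4 of the 9 genes (Scgb1a1, Sftpa1, Sftpb and Sftpc) were at least 4-fold brighter on replicate 2 than on both other arrays, with values under 100 set to 100, while 0.374% of all genes (68 of 18194) were. Scgb3a1, Scgb3a2 and Bpifb1 were below at least 1 of the other arrays of the group, and Bpifa1 was 1.06-fold above the next. In the list of alveolar type 2 and surfactant processing genes, 2 of the 9 measured passed that fold, Cxcl15 and the phosphate transporter Slc34a2, both named after their values were seen. The summed level of that list was 17152, 58780.1 and 19102 on ZsG minus cTEC arrays, so replicate 2 was the highest. Within the group 8 of its 9 genes were highest on replicate 2, as were 6 of the 9 secretoglobin, surfactant and BPI-fold genes and 31.1% of all genes. Cxcl15 read 399, 59.6 and 629 on ZsG plus arrays, 173, 2628 and 742 on ZsG minus mTEC arrays and 173, 22317 and 316 on ZsG minus cTEC arrays. Slc34a2 read 530.2, 858 and 3476 on ZsG plus arrays, 807, 749 and 3347 on ZsG minus mTEC arrays and 112, 3555 and 247 on ZsG minus cTEC arrays, so it was as bright on a ZsG plus and a ZsG minus mTEC array. Of 8 alveolar type 1 genes 1 passed, Ager, at 43.9, 525 and 53.1 on ZsG minus cTEC arrays. Ager was brighter still on ZsG plus replicate 1, at 663, and on ZsG minus mTEC replicate 1, at 580. Of 8 club cell, 8 goblet and mucous gland and 13 transcription factor genes 0 passed that fold.

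**Figure D3:**
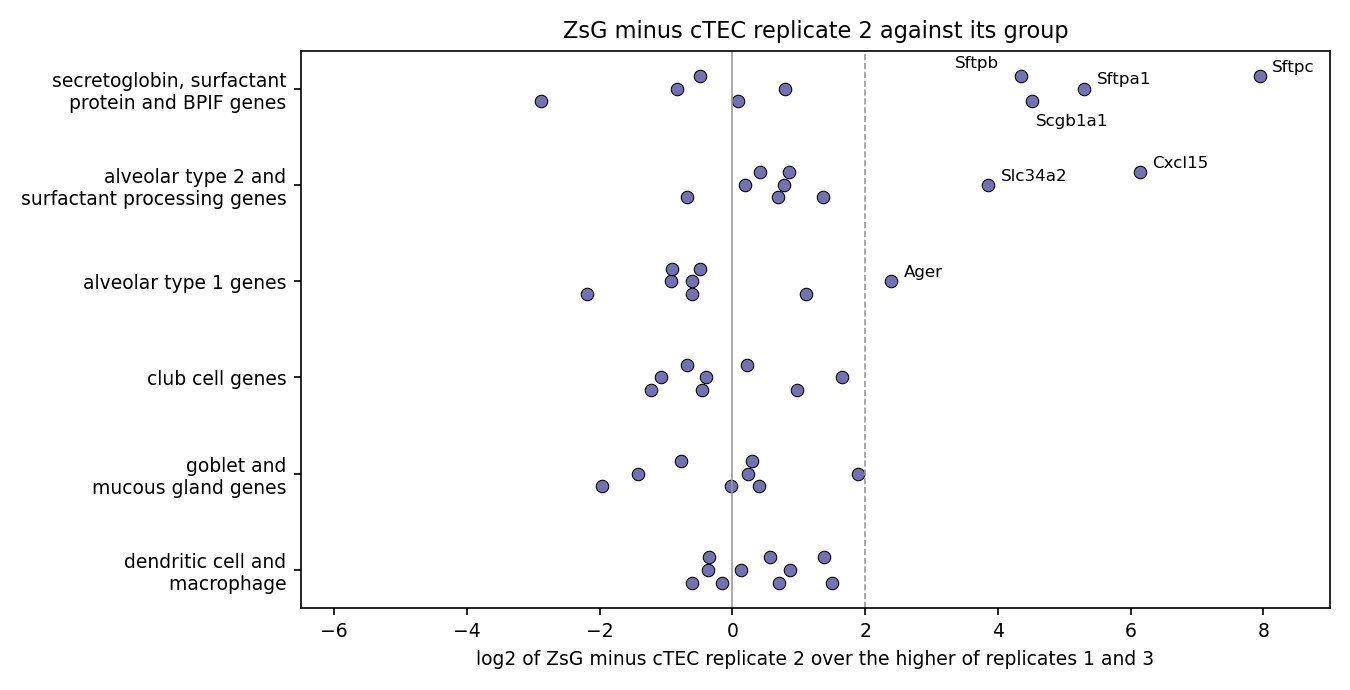
Log2 ratio of ZsG minus cTEC replicate 2 to the higher of replicates 1 and 3, with values under 100 set to 100, for the 9 genes and 5 lists (1 dot per gene, spread vertically for view). The dashed line marks 4-fold. Sftpc, Cxcl15, Sftpa1, Scgb1a1, Sftpb, Slc34a2 and Ager lie beyond it, and no club cell, goblet or dendritic cell and macrophage gene does.

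Markers of other cells on ZsG minus cTEC replicate 2 were as follows, and their part in its bright surfactant genes was not tested. The summed level of 10 dendritic cell and macrophage genes was 24912, 52381 and 17264 on ZsG minus cTEC arrays, so replicate 2 was the highest of its group, and it was 34304 to 104777 on ZsG plus and 38471 to 53544 on ZsG minus mTEC arrays. Lyz2 was the brightest of them on each ZsG minus cTEC array, at 11779, 30493 and 6909, so 1 gene made up a large part of each sum. It read 31836 to 39773 on ZsG minus mTEC arrays. Of these 10 genes, 6 were highest on replicate 2 within the group, against 31.1% of all genes, and 0 by 4-fold. For the 11 measured thymocyte genes the sums were 64393, 49221 and 52089 on ZsG minus cTEC arrays, for 7 fibroblast genes 34739.5, 42299 and 53079.9, for 5 endothelial genes 2974, 3045 and 2667 and for 3 B cell genes 679, 901 and 2692, and replicate 2 was not the highest for thymocyte, fibroblast and B cell genes. Ighm, the gene of an antibody heavy chain, was in none of these lists and is named after its values were seen. At 1 probe set it read 5601 on replicate 2 and at most 782 on any other array, a 7.17-fold excess. Summed cTEC markers on that array, at 325166, lay well above all ZsG plus (135339 to 162275) and ZsG minus mTEC arrays (120483 to 154538). No marker was at 0 on any array. Array-wide measures did not set replicate 2 apart, since its median intensity was 382, between the 376 and 404 of the others of its group, and its mean correlation with them was 0.844, against 0.848 and 0.827.

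Some of these lists also moved with the groups, beside Bpifb1 and the relatives called against ZsG minus cTEC. The summed thymocyte genes were at 7145 to 9343 on ZsG plus and 6299.7 to 10130.5 on ZsG minus mTEC arrays, below every ZsG minus cTEC array, and 2 and 1 of 11 were called lower (limma, ZsG plus and ZsG minus mTEC versus ZsG minus cTEC). Summed fibroblast genes were at 5105 to 25800.3 on ZsG plus and 4897 to 7820.1 on ZsG minus mTEC arrays, with 1 of 7 called lower in each of these comparisons. Of 8 mTEC regulators and markers 3 were called higher in each, and of 12 cTEC markers 4 and 1 lower. Over all 18194 genes, 109 and 96 were called higher and 208 and 18 lower in these comparisons (limma). The part of these lists in the values of Bpifb1, Mbl2, Pltp, Clic5 and Etv5 was not tested.

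Close relatives of the 9 genes were taken as lists chosen with earlier results of these data known. The fit gives all groups 1 estimate of the spread, although ZsG plus arrays varied most, and the calls of ZsG plus versus ZsG minus cTEC that follow (Mbl2, Pltp, Etv5 and Clic5) were all lost both with limma on only the 6 arrays of these groups, at adjusted p-values from 0.120 to 0.156, and with array weights, at 0.0947 to 0.0957. Among 5 other collectins, 1 was higher than in ZsG minus cTEC in both comparisons, Mbl2, a mannose-binding lectin made mainly by liver. Mbl2 read 2839.7, 1403 and 1562 on ZsG plus arrays, 2864, 4438 and 4178 on ZsG minus mTEC arrays and 324, 265 and 338 on ZsG minus cTEC arrays, with the ZsG minus cTEC arrays all lowest. All its ZsG minus cTEC values lay inside the bacterial range, so the sizes of the differences rest in part on dim values. The log2 difference of Mbl2 was 2.58 ± 0.53 for ZsG plus (limma adjusted p = 0.0494) and 3.61 ± 0.53 for ZsG minus mTEC (limma adjusted p = 0.0358). Leaving out arrays 1 at a time, its adjusted p went up to 0.172 for ZsG plus and 0.148 for ZsG minus mTEC, and the call was lost without any 1 of the ZsG minus mTEC or ZsG minus cTEC arrays, and for ZsG plus also without its replicate 1. Unlike Sftpa1 and Sftpd, it was not raised on ZsG minus cTEC replicate 2, which had the lowest value of all. When that array was left out its differences were 2.48 (adjusted p = 0.172) and 3.51 (adjusted p = 0.125) by limma. Colec12 and Colec10, the brightest of the collectins not called, had log2 differences of -0.45 ± 1.16 and -0.50 ± 1.17 in ZsG plus versus ZsG minus cTEC, or -0.21 and -0.046 without that array.

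Of 10 other BPI-fold genes measured, Pltp, a phospholipid transfer protein of plasma, fell in ZsG plus against ZsG minus cTEC. It read 3709, 5668 and 4584 on ZsG plus arrays, 23725, 13000.1 and 8836 on ZsG minus mTEC arrays and 46978, 34678 and 47176 on ZsG minus cTEC arrays, and so was highest in the group where Bpifb1, at the probe set used, was lowest. The difference of ZsG plus from ZsG minus cTEC was -3.21 ± 0.56 (limma adjusted p = 0.0354), and it was lost, with an adjusted p of up to 0.146, without any 1 of the ZsG minus mTEC or ZsG minus cTEC arrays. It was -3.36 (adjusted p = 0.111) without ZsG minus cTEC replicate 2 (limma). Bpifc read 9345, 227 and 495 on ZsG plus arrays, 6543, 4635 and 6033 on ZsG minus mTEC arrays and 247, 424 and 319.8 on ZsG minus cTEC arrays. All ZsG minus mTEC arrays of Bpifc were above all ZsG minus cTEC arrays, but with 4.14 ± 1.18 (adjusted p = 0.169) by limma the difference did not pass, nor did it without ZsG minus cTEC replicate 2, at 4.34 (adjusted p = 0.345). Bpifb9b, at 2178, 790.3 and 125 on ZsG plus arrays, 1323, 184 and 1153 on ZsG minus mTEC arrays and 178, 161 and 309 on ZsG minus cTEC arrays, overlapped in all groups. Bpifa5, which lies between Bpifa1 and Bpifb1, read 10.03, 31.6 and 358 on ZsG plus arrays, 276, 27.8 and 809 on ZsG minus mTEC arrays and 14.1, 15.6 and 11.3 on ZsG minus cTEC arrays, and was named here for its place.

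The 3 other secretoglobins measured, Scgb1b2, Scgb1b27 and Scgb2b27, were dim on most arrays, with the highest value of the 3 at 757 (Scgb1b27, ZsG minus mTEC replicate 1), and 0 passed in any comparison (limma, 1 at an unadjusted p under 0.05 both in ZsG plus versus ZsG minus mTEC, lower, and in ZsG minus mTEC versus ZsG minus cTEC, higher). Scgb1b27 differed by -2.21 ± 0.88 (adjusted p = 0.336) in the first and 2.33 ± 0.88 (adjusted p = 0.307) in the second, or 1.87 (adjusted p = 0.663) without ZsG minus cTEC replicate 2 (limma). Scgb1b2 was at 113, 116 and 131 in ZsG plus, ZsG minus mTEC and ZsG minus cTEC by geometric mean. SP-C shares its BRICHOS domain with a family in which 0 of 8 other measured genes passed (limma, at an unadjusted p under 0.05 there were 1 lower, 1 higher and 2 higher in the same order of comparisons as for Sftpd). The brightest of them, Itm2b and Itm2c, had ZsG plus versus ZsG minus cTEC differences of 0.41 ± 0.49 and -0.65 ± 0.57, or 0.45 and -0.50 without that array. SP-B shares saposin domains with 4 measured genes, of which 0 passed (limma, 1 higher at an unadjusted p under 0.05 in each comparison). Of all 18194 genes, 582, 1353 and 1528 were higher and 1855, 2048 and 710 lower at that p, in the order used for Sftpd (limma). Psap, the saposin precursor, was even, at 12703, 15073 and 13169, and Psapl1 was at 6685, 4727 and 788 in ZsG plus, ZsG minus mTEC and ZsG minus cTEC, with 3.09 ± 1.10 (adjusted p = 0.18) for ZsG plus versus ZsG minus cTEC by limma and 2.67 (adjusted p = 0.409) without that array.

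**Figure D4:**
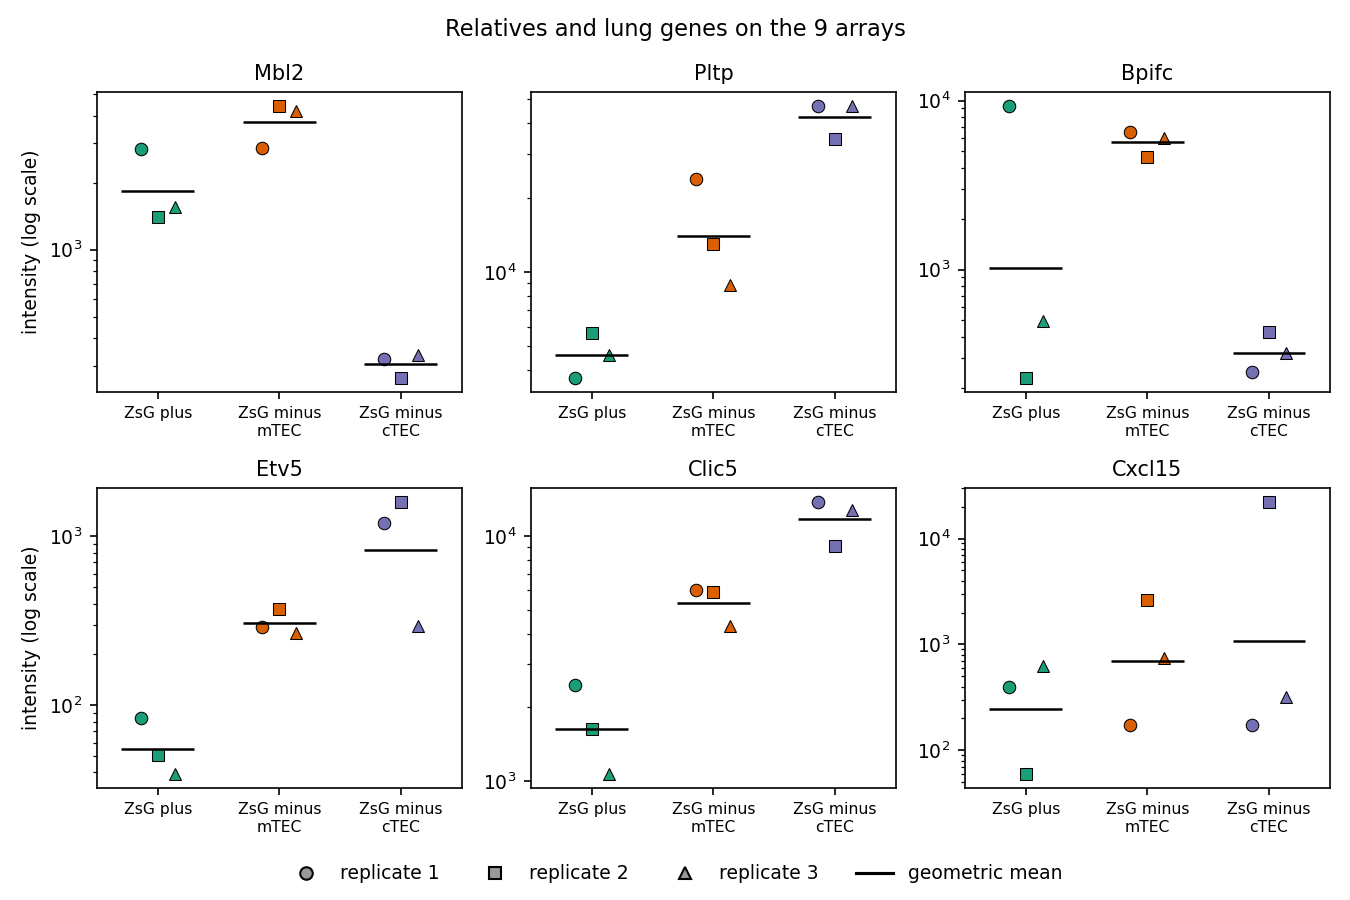
Intensity of 6 relatives and lung genes on each array (log axis, arbitrary units of brightness), drawn as in the plot of the 9 genes. Mbl2 is lowest and Pltp and Clic5 highest on ZsG minus cTEC arrays, Bpifc is even on ZsG minus mTEC arrays with 1 bright ZsG plus array, and Cxcl15 is bright on ZsG minus cTEC replicate 2.

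The lung cells that make these proteins express further genes, taken as lists. Of 9 alveolar type 2 and surfactant processing genes measured, Etv5, a transcription factor, fell in ZsG plus against ZsG minus cTEC, with a log2 difference of -3.91 ± 0.72 (limma adjusted p = 0.0395). It read 84.3, 50.6 and 39.1 on ZsG plus arrays, within the bacterial range, 289, 369.6 and 268 on ZsG minus mTEC arrays and 1203, 1605 and 292 on ZsG minus cTEC arrays. Leaving out single arrays gave adjusted p-values up to 0.155, with the call lost in all cases but those without ZsG plus replicate 1 or 2. With ZsG minus cTEC replicate 2 left out the difference was -3.43 (adjusted p = 0.142) by limma. The bright processing genes Ctsh, a protease that cuts the SP-B and SP-C precursors, and Lpcat1, an enzyme of surfactant lipid, had ZsG plus versus ZsG minus cTEC differences of 0.18 ± 0.62 and -0.48 ± 0.63, or 0.46 and -0.17 without that array. The list's median was -1.45, -0.48 and 0.078 for ZsG plus versus ZsG minus mTEC, ZsG plus versus ZsG minus cTEC and mTEC versus cTEC (both ZsG minus). The second was 0.076, of the opposite sign, and the third 0.72 when ZsG minus cTEC replicate 2 was left out.

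Of 8 alveolar type 1 genes, Clic5, an intracellular chloride channel protein, fell in ZsG plus against ZsG minus cTEC, with a log2 difference of -2.84 ± 0.55 (limma adjusted p = 0.0417), with 2475, 1628 and 1069 on ZsG plus arrays, 6033, 5898 and 4306 on ZsG minus mTEC arrays and 13792, 9079 and 12712 on ZsG minus cTEC arrays. Its call was lost without any 1 of the ZsG minus mTEC or ZsG minus cTEC arrays, with an adjusted p of up to 0.159. With ZsG minus cTEC replicate 2 left out its difference was -3.02 (adjusted p = 0.124) by limma. Pdpn and Hopx in the same list differed by -2.19 ± 0.75 (adjusted p = 0.168) and 1.53 ± 1.04 (adjusted p = 0.465) by limma. They differed by -2.47 (adjusted p = 0.289) and 2.14 (adjusted p = 0.466) without that array.

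Among club cell genes 0 of 8 passed in any comparison (limma, 0, 2 and 3 at an unadjusted p under 0.05, all higher, in ZsG plus versus ZsG minus mTEC, ZsG plus versus ZsG minus cTEC and ZsG minus mTEC versus ZsG minus cTEC). Over all 18194 genes, 582, 1353 and 1528 were higher at that p in this order (limma). Cbr2, a carbonyl reductase, was at 16326, 8787 and 17264 in ZsG plus, ZsG minus mTEC and ZsG minus cTEC. Gabrp, a GABA receptor subunit of epithelia, was at 8706, 3921 and 1712 in that order, with 2.35 ± 0.70 (adjusted p = 0.126) for ZsG plus versus ZsG minus cTEC by limma and 1.94 (adjusted p = 0.343) without ZsG minus cTEC replicate 2.

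In the goblet and mucous gland list 0 of 8 passed (limma, 0, 3 and 3 higher at an unadjusted p under 0.05 in the same order of comparisons, beside the counts over all genes just given), with list medians of 0.13, 1.99 and 1.80. The second and the third median were 2.16 and 1.75 without ZsG minus cTEC replicate 2. Clca1, a secreted goblet cell protein, read 11331, 8974 and 821 on ZsG plus arrays, 3278, 6196 and 2994 on ZsG minus mTEC arrays and 207, 768 and 144 on ZsG minus cTEC arrays. As for Bpifb1, both other groups of Clca1 were above ZsG minus cTEC on each array, with 3.95 ± 1.06 (adjusted p = 0.102) for ZsG plus and 3.79 ± 1.06 (adjusted p = 0.161) for ZsG minus mTEC by limma. These were 4.66 (adjusted p = 0.152) and 4.51 (adjusted p = 0.215) without that array. Pigr, the receptor that carries antibody into secretions, differed by 1.95 ± 0.80 (adjusted p = 0.233) and 2.04 ± 0.80 (adjusted p = 0.328) in these, and by 1.53 (adjusted p = 0.504) and 1.62 (adjusted p = 0.688) without it.

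Of 13 airway and lung transcription factors 0 passed (limma, at an unadjusted p under 0.05 0 higher and 4 lower in ZsG plus versus ZsG minus mTEC, 3 higher and 1 lower in ZsG plus versus ZsG minus cTEC, and 3 higher in ZsG minus mTEC versus ZsG minus cTEC). Of all 18194 genes, 1855 were lower at that p in the first, 1353 higher and 2048 lower in the second and 1528 higher in the third (limma). Ehf, an ETS factor of airway and other epithelia, was at 16136, 14771 and 4789 in ZsG plus, ZsG minus mTEC and ZsG minus cTEC, and Sox9 was at 6279, 7203 and 3207.

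Over the 9 arrays the genes did not vary as 1 block. As descriptions across arrays that share groups and RNA amplification, Pearson's r of log2 intensity was 0.71 between Sftpa1 and Sftpc and 0.65 between Sftpb and Sftpc, and without ZsG minus cTEC replicate 2 these were 0.68 and -0.55. Scgb1a1 and Sftpd had r = 0.77 with that array and 0.76 without it. Bpifa1 and Bpifb1 had r = -0.41, and -0.30 without it.

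Genes outside the set whose pattern over the 9 arrays was most like a member were found among 12210 genes with a geometric mean of at least 200. Scgb1a1 was nearest to Pim1 (r = 0.989), then Ogdh (0.931) and Nfkbie (0.894). Scgb3a1 was nearest to Cant1 (r = 0.949) and Scgb3a2 to Dus2 (r = 0.964). For the surfactant genes these were Tm4sf5 for Sftpa1 (r = 0.931), Dapp1 for Sftpc (r = 0.897) and Cfap70 for Sftpd (r = 0.980), while Sftpb was too dim to be included. Bpifa1 was nearest to Slc25a40 (r = 0.936) and Bpifb1 to Rnase1 (r = 0.959). Each is the highest of 12210 correlations over 9 points and is given as a description.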

How the data were processed

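RNA of sorted thymic epithelial cells was amplified from 5 ng per sample, per the labels' protocols, and hybridised to 9 Affymetrix mouse expression arrays, 3 per group by title. The deposited values are linear intensities per probe set, and per the values themselves each array's mean without the top and bottom 2% is 1250.0. The sources used here do not name software or background correction. No pair of arrays was identical, and the number of arrays limits the precision.

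Of 45101 probe sets, 34958 have 1 symbol in the platform annotation, 932 several and 9211 none, and only the first were named. Per gene the probe set with the highest mean log2 intensity was used (18194 genes, 9012 with several probe sets). The log2 of the deposited intensities, without an offset, was fitted with limma 3.58.1 in R 4.3.3, with 1 coefficient per group over 9 arrays and 6 residual degrees of freedom. Tests were two-sided, adjusted by Benjamini-Hochberg over all genes, with a threshold of 0.05. The probe sets not used were tested in a fit of all 34958. The fit was tested on simulated data of 18194 genes with each group's own spread, where genes made without a change were also called. These were 46 in ZsG plus versus ZsG minus mTEC, 48 in ZsG plus versus ZsG minus cTEC and 7 in ZsG minus mTEC versus ZsG minus cTEC. Of 50 genes given a log2 change of 2, 2%, 8% and 0% were called in that order. At a log2 change of 4 these shares were 40%, 46% and 30%.

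The 9 genes were named in every comparison, and of each list up to 3 genes past the threshold per direction and the 2 brightest not past it. For likeness the 3 genes with the highest r were found, and for most members the first is printed. The members and all lists were chosen with earlier results of these data known. Among the list genes, Lamp3, Bpi, Cetp, Lck and Hbb-b1 were not analysed here. Alternatives were the probe set rule, a filter, an offset, a floor, other scaling, fewer arrays, array weights, the replicate number as a block and leaving out each array. Promoters came from RefSeq, and figures were drawn with matplotlib 3.10.9.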

Additional observations from a re-analysis of the deposited data

How the results depend on the processing

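Counts of genes past the threshold are given for ZsG plus versus ZsG minus mTEC, ZsG plus versus ZsG minus cTEC and ZsG minus mTEC versus ZsG minus cTEC in that order, and the causes of the shifts were not tested. As reported they were 40, 317 and 114. With all single-symbol probe sets they were 82, 536 and 43, with an offset of 50 they were 101, 660 and 334, and with values under 100 set to 100 they were 202, 862 and 425. The mean over probe sets gave 496 and 216 in the second and the third, and leaving out genes below the 40th percentile gave 504 and 176. Quantile normalization gave 15 in the first and 178 in the third, and median centring gave 3 and 48. With limma on only the 6 arrays compared the counts were 0, 0 and 548 (1785, 2704 and 3695 at an unadjusted p under 0.05), and with array weights 0, 37 and 1220 (1705 at an unadjusted p under 0.05 in the first). Choosing the brightest probe set by linear mean, an alternative added after seeing the data, gave 51, 352 and 85. Leaving out single arrays gave 0 to 230, 0 to 735 and 0 to 304.

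Same-numbered replicates did not deviate together (r from -0.015 to 0.013), so the numbers were not taken as pairs. With the replicate block, limma gave 0, 16 and 0 (2320, 3278 and 2172 at an unadjusted p under 0.05). The share of calls that were higher moved by over 10 percentage points as follows. In the first comparison it was 7.5% as reported, 26.7% with quantile normalization and 33.3% with centring. In the second it was 34.4% as reported, 53.2% with quantile normalization, 58.3% with centring, 16.2% with weights, 18.8% with the block and 23.1% with all probe sets. In the third it was 84.2% as reported, 72.5% with the floor, 72.1% with 6 arrays and 72.0% with weights.

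Of 537 values of the 9 genes under the alternatives, 514 kept direction and side of the threshold, 1 passed it (Bpifb1, ZsG plus versus ZsG minus cTEC, with the offset) and 22 changed direction with no call. In ZsG plus versus ZsG minus mTEC, Bpifb1 was -0.45 with the mean over probe sets, Sftpb was -0.0025 with the floor, Sftpc was 0.16 with quantile normalization and 0.24 with centring, and centring gave Sftpd 0.38 and Bpifa1 0.27. Leaving out single arrays there gave Scgb1a1 -1.83 to 0.23, Scgb3a1 -0.11 to 1.39, Sftpc -0.78 to 0.15 and Sftpd -0.72 to 0.22. In ZsG plus versus ZsG minus cTEC, Bpifa1 was 0.078 with centring, and leaving out arrays gave Sftpa1 -3.46 to 1.54, Sftpc -3.31 to 1.08 and Sftpd -0.070 to 0.87. In ZsG minus mTEC versus ZsG minus cTEC, Bpifa1 was 0.043 with array weights, and leaving out arrays gave Bpifa1 -0.15 to 0.21, Scgb3a2 -0.10 to 1.14, Sftpa1 -0.56 to 4.44 and Sftpc -2.92 to 1.47. Sftpb had no value with dim genes left out, since its mean was below that percentile. Directions did not change in any alternative for Scgb1a1, Scgb3a1, Scgb3a2, Sftpb and Bpifb1 in the second comparison and for Scgb1a1, Scgb3a1, Sftpb, Sftpd and Bpifb1 in the third. Among the relatives called against ZsG minus cTEC, the call was lost in 13 of 19 alternatives for Etv5, 11 of 20 for Clic5, 10 of 20 for Pltp and, for Mbl2, 11 of 20 in ZsG plus and 8 of 20 in ZsG minus mTEC, with no change of direction.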
